A study of Mus musculus with 6 samples.

Results

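The genes that mark the 2 layers of dermal fibroblasts were compared between the dorsal skin of tight skin (TSK) and wild-type (WT) mice. The papillary set was Crabp1, Lrig1, Ntn1, Apcdd1 and Axin2, and the reticular set was Dlk1, Mgp, Plac8, Gpx3 and Mest. All 10 genes were found by gene name among the 55291 genes of the table, and all 10 were among the 19971 that passed the filter on low counts. TSK mice carry a duplication within Fbn1, the gene of the microfibril protein fibrillin 1, on a C57BL/6 background to which the allele was backcrossed, and the WT mice were their C57BL/6 littermates. The allele is present in every tissue of the animal and is not restricted to fibroblasts. Each group had 3 mice with 1 library of whole shaved skin per mouse. The labels give females of 6 to 8 weeks, while the methods of the study describe males of 8 weeks. The Y-linked Ddx3y was at 56.7 to 72.8 CPM and Xist at 2.57 to 4.58 CPM in all 6 libraries, so the sex label did not match the reads.

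The dermis has an upper, papillary layer beneath the epidermis and a lower, reticular layer above the dermal fat and the panniculus muscle. Papillary fibroblasts respond to Wnt signals from the epidermis and contribute to the hair follicle's dermal papilla and arrector muscle, whereas fibroblasts of the lower dermis make the bulk of the fibrillar collagen and share a lineage with dermal adipocytes. In neonatal mouse skin the layers are told apart by gene expression, and in adult skin many of these genes are shared with other cells. Lrig1 and Axin2 are also expressed in the hair follicle epithelium, Plac8 in myeloid cells, and Gpx3 and Mest in fat. In whole skin RNA, fewer cells of a type and less RNA per cell cannot be told apart, and none of the 10 genes can be assigned to fibroblasts from these libraries alone.

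Library totals were 17561453 to 19219814 counts, with 30448 to 31812 genes detected per library. Fbn1, which checks the genotype, was at 267, 289 and 262 CPM (counts scaled to 1000000 per library) in WT and at 1538, 2284 and 2007 CPM in TSK, a log2 fold change of 2.54 (SE 0.22, adjusted p = 0.00327, edgeR quasi-likelihood test). Across all tested genes, 678 passed an adjusted p of 0.05, which is 3.39%. Of these, 542 were higher in TSK (2.71%) and 136 were lower (0.681%). Summed levels of cell type markers differed between the genotypes. The 10 pan-fibroblast marker genes summed to 6596 to 10017 CPM in WT and 20922 to 48147 CPM in TSK. Most of this sum was collagen: Col1a1, Col1a2 and Col3a1 had means of 3025, 1736 and 3207 CPM in WT. In TSK their means were 13347, 6321 and 9436 CPM. The log2 fold changes of the 10 genes ran from 0.36 to 1.84. The 10 adult skeletal muscle genes summed to 151280 to 219779 CPM in WT and 129904 to 149388 CPM in TSK. TMM, a scaling that limits the weight of a few abundant genes, gave other fold changes than library size alone. The median log2 fold change over all tested genes was -0.03 with TMM and 0.25 when only library size was used.

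Promoter windows of 250 bases upstream of a RefSeq transcript start (GRCm38.p6) were available for 7 members: Crabp1, Lrig1, Axin2, Dlk1, Plac8, Gpx3 and Mest. The RefSeq starts equal the GENCODE gene starts given further on for Crabp1, Axin2 and Dlk1. For Lrig1, Plac8, Gpx3 and Mest they lie inside the GENCODE gene, so the Gpx3 and Mest windows and 1 of Plac8 fall wholly within the gene coordinates printed for them. The windows of the member with the highest level per length in each set are shown to let the base composition of the 2 promoters be compared, with every CpG dinucleotide in capitals. The Lrig1 window lies at chr6:94700146-94700395 on the minus strand and the Gpx3 window at chr11:54902604-54902853 on the plus strand.
Lrig1: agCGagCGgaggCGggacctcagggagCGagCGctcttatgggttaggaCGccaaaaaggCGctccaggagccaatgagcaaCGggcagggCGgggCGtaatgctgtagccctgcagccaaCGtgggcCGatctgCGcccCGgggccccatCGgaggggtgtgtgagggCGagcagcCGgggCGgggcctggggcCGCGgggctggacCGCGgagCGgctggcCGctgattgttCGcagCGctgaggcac
Gpx3: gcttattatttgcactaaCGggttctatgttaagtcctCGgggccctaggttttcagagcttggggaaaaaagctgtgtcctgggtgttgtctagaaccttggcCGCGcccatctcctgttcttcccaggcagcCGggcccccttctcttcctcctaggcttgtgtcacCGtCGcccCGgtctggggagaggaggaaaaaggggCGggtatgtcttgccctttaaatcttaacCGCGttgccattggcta
The Lrig1 window had 26 CpG and a GC content of 71.6%, and the Gpx3 window 11 CpG and 55.2%. The median over all 32851 windows was 6 CpG and 52.4% GC, and 9.59% of windows held at least as many CpG as that of Lrig1 and 35.6% at least as many as that of Gpx3. Axin2 (24 CpG, 69.2% GC) was close to Lrig1, and Crabp1 had 12 CpG. Of the other reticular genes, Dlk1 had 8 CpG, and the annotated starts of Plac8 had 4 and 9 and those of Mest had 7, 14 and 14. The TCF/LEF core CTTTGA was searched on both strands because Axin2 is a known Wnt target. None of the 10 member windows held it, against 13.8% of all windows, which says only that these letters are not in these windows.

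Of the 5 papillary genes, Ntn1 was higher in TSK and passed the test, and the other 4 did not pass it. Ntn1 encodes netrin 1, a secreted laminin-related guidance protein, and lies at 11:68209364-68400823 on the minus strand (mm10). Its level was 11.9, 14.1 and 15.3 CPM in the WT libraries and 43.9, 36.8 and 81.4 CPM in the TSK libraries. Every TSK library was above every WT library, on the deposited CPM and on the TMM scale, and TSK 3 was the highest. The means were 13.8 ± 1.74 CPM and 54.0 ± 24.0 CPM (SD, n = 3), a ratio of 3.93, and the fitted log2 fold change was 1.67 (SE 0.30, adjusted p = 0.0239). Without TSK 3 the log2 fold change was 1.28 (adjusted p = 0.0343). The call was lost without WT 2 (1.77, adjusted p = 0.0558) and without WT 3 (1.78, adjusted p = 0.0886), although the fold change was then greater. Calls over all genes also fell in these fits, from 678 to 287 and 60. The study itself used DESeq2 and asked for an adjusted p under 0.01 and a fold over 2.5. In edgeR 0.29% of tested genes met this and Ntn1 did not, whereas in DESeq2 Ntn1 did (log2 fold change 1.67, adjusted p = 1.73e-06).

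Apcdd1 encodes a membrane-bound inhibitor of Wnt signalling (18:62922231-62961179, plus strand). It was at 45.3, 22.0 and 27.9 CPM in WT and at 55.1, 61.2 and 56.1 CPM in TSK. The groups did not overlap, and WT 1 stood closest to the TSK libraries. The means were 31.8 ± 12.1 and 57.4 ± 3.25 CPM, and the log2 fold change of 0.61 (SE 0.18) had a p of 0.00919 in edgeR and an adjusted p of 0.108. Without WT 1 the log2 fold change was 0.86 with an adjusted p of 0.0195, in a fit that called 1260 genes over all against 678. With all 6 libraries, limma-trend on the deposited CPM, without TMM, also called Apcdd1 (adjusted p = 0.0353 and 0.0373 at pseudocounts of 1 and 0.1). In edgeR with library size only the adjusted p was 0.052, and in limma-voom with TMM it was 0.108. WT 1 also had the highest sum of 10 basal and follicle keratinocyte genes, 7020 CPM against 3532 to 5649 CPM in the other 5 libraries, and the part of that in the Apcdd1 values was not tested.

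Axin2, a scaffold of the beta-catenin destruction complex that Wnt signalling induces, was at 46.2, 28.2 and 31.4 CPM in WT and at 44.9, 38.9 and 35.1 CPM in TSK (11:108920349-108950783, plus strand). The groups overlapped, with WT 1 the highest of all 6. The log2 fold change was -0.09 (SE 0.16, adjusted p = 0.818). With scaling by library size alone it was 0.17, so the sign of this small difference depended on the scaling. Axin2 shares 209 exonic bases with an antisense gene, Gm11670, which had at most 1 count in any library.

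Lrig1, a transmembrane protein that dampens signalling of the EGF receptor family, was the most abundant papillary gene (6:94604529-94700158, minus strand). It was at 76.4, 59.9 and 68.7 CPM in WT and at 85.0, 77.3 and 77.2 CPM in TSK. On the deposited CPM the groups did not overlap, but the gap between WT 1 and TSK 3 was narrow, and on the TMM scale they overlapped. The log2 fold change was -0.05 (SE 0.12, adjusted p = 0.873) with TMM and 0.22 with library size alone. It shares 144 exonic bases with Slc25a26 on the opposite strand, and whether the counting used strand is not given in the sources used here.

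Crabp1, a cytosolic carrier of retinoic acid, was the lowest papillary gene (9:54764748-54773110, plus strand). It had 9, 3 and 62 counts in WT and 19, 19 and 18 counts in TSK, or 0.513, 0.160 and 3.41 CPM against 1.04, 0.988 and 0.954 CPM. The TSK libraries were alike and lay between the WT libraries, and WT 3 held most of the WT counts. The log2 fold change of -0.73 (SE 0.84, adjusted p = 0.683) became 1.34 (adjusted p = 0.292) without WT 3. No direction can be read for Crabp1, whose sign turned with this 1 library.

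**Figure D1:**
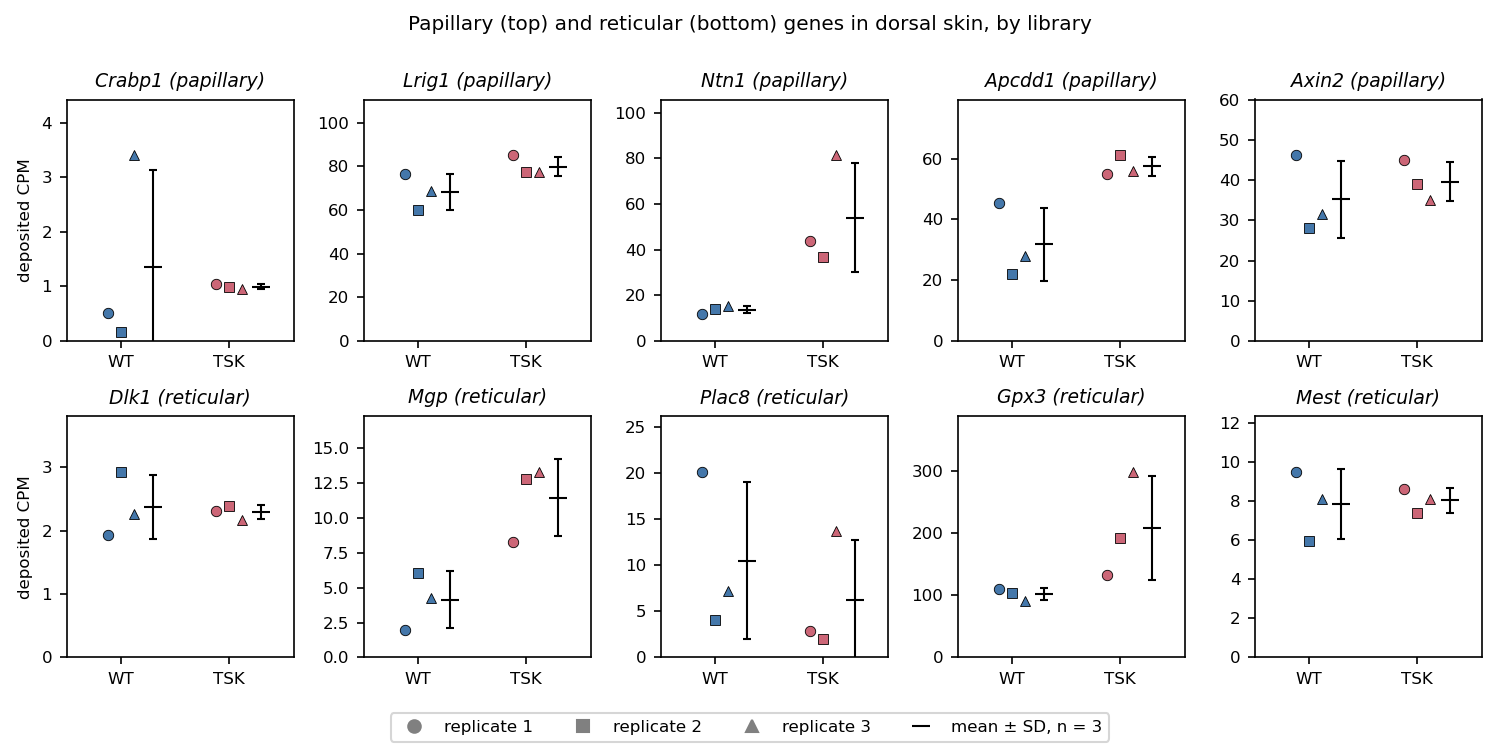
Deposited CPM of the 10 members in each of the 3 WT and 3 TSK libraries, with 1 panel per gene on its own axis in CPM. Points are mice, and bars give the mean and SD, with the lower bars of Crabp1 and Plac8 cut at 0. The TSK points of Ntn1, Apcdd1, Lrig1, Mgp and Gpx3 lie above all WT points of the same gene.

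None of the 5 reticular genes passed the test in edgeR with TMM in either direction. Mgp and Gpx3 had an unadjusted p under 0.05, both with the higher values in TSK, and DESeq2 called Gpx3 (adjusted p = 0.0449). With library size only, which shifts all genes upward, edgeR called both Mgp (1.47, adjusted p = 0.0342) and Gpx3 (1.04, adjusted p = 0.0374), and so did limma-trend on the deposited CPM. Mgp encodes matrix Gla protein, a vitamin K-dependent matrix protein that inhibits calcification (6:136872435-136875823, minus strand). It was at 1.99, 6.07 and 4.29 CPM in WT and at 8.25, 12.8 and 13.3 CPM in TSK. The groups did not overlap, although WT 2 came near TSK 1. The means were 4.12 ± 2.04 and 11.5 ± 2.78 CPM, a ratio of 2.78, and the log2 fold change was 1.14 (SE 0.40) with an adjusted p of 0.161. Leaving out WT 1, the lowest library, gave 0.79 (adjusted p = 0.118), and leaving out WT 2, the highest WT library, gave 1.63 (adjusted p = 0.0900). With the replicate number as a block the value was 1.26 with an adjusted p of 0.0471, but the numbers did not pair the mice.

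Gpx3 encodes a secreted, selenium-containing glutathione peroxidase found in plasma (11:54902453-54910377, plus strand). It was the most abundant member, at 109.8, 104 and 91.0 CPM in WT and 133, 193 and 299 CPM in TSK. The TSK libraries were spread widely, with TSK 3 the highest. The means were 102 ± 9.63 and 208 ± 84.1 CPM, a ratio of 2.05, and the log2 fold change was 0.74 (SE 0.25, adjusted p = 0.152). Without TSK 3 it was 0.41. After TMM scaling WT 2 passed TSK 1 and the groups overlapped. The summed level of 10 adipocyte genes was 236 to 306 CPM in WT and 615 to 3633 CPM in TSK, highest in TSK 2, whereas the pan-fibroblast sum was highest in TSK 3. The part of either in the Gpx3 values was not tested.

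Dlk1 is a paternally expressed, imprinted gene for a Notch-like membrane protein that restrains adipocyte formation (12:109452823-109463336, plus strand). It was low in every library, at 1.94, 2.93 and 2.25 CPM in WT and 2.31, 2.39 and 2.17 CPM in TSK. The TSK values fell inside the range of the WT values, and the log2 fold change was -0.35 (SE 0.28, adjusted p = 0.533). Meg3, the maternally expressed long noncoding RNA of the same imprinted domain, was at 69.6, 80.6 and 76.4 CPM in WT and 165, 178 and 407 CPM in TSK. All 3 TSK libraries exceeded all WT libraries for Meg3, with a log2 fold change of 1.42 (SE 0.33, adjusted p = 0.0579).

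Mest, another paternally expressed gene, encodes a hydrolase-fold protein linked to adipocyte size (6:30723547-30748465, plus strand). It was at 9.51, 5.96 and 8.14 CPM in WT and 8.63, 7.39 and 8.11 CPM in TSK. The groups overlapped, with means of 7.87 ± 1.79 and 8.04 ± 0.626 CPM and a log2 fold change of -0.23 (SE 0.17, adjusted p = 0.502), or 0.03 with library size alone. Mest shares 912 exonic bases with Copg2 on the opposite strand, whose own log2 fold change was 0.02 (adjusted p = 0.957). Copg2 had 339 to 596 counts per library and Mest 112 to 167. Whether the counting used strand is not given, so the part of Copg2 reads in the Mest counts is not known.

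Plac8, a small cysteine-rich protein also made by myeloid cells, varied widely among mice of each genotype (5:100553725-100572245, minus strand). It was at 20.2, 4.10 and 7.26 CPM in WT and 2.86, 2.03 and 13.7 CPM in TSK. WT 1 was the highest WT library and TSK 3 the highest TSK library, and the groups overlapped. The log2 fold change of -0.98 (SE 0.71, adjusted p = 0.497) was -0.22 without WT 1 and -2.29 without TSK 3. The summed myeloid markers, 311, 155 and 239 CPM in WT and 303, 407 and 766 CPM in TSK, were likewise highest in WT 1 and TSK 3 of their groups. The part of myeloid cells in the Plac8 values was not tested.

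**Figure D2:**
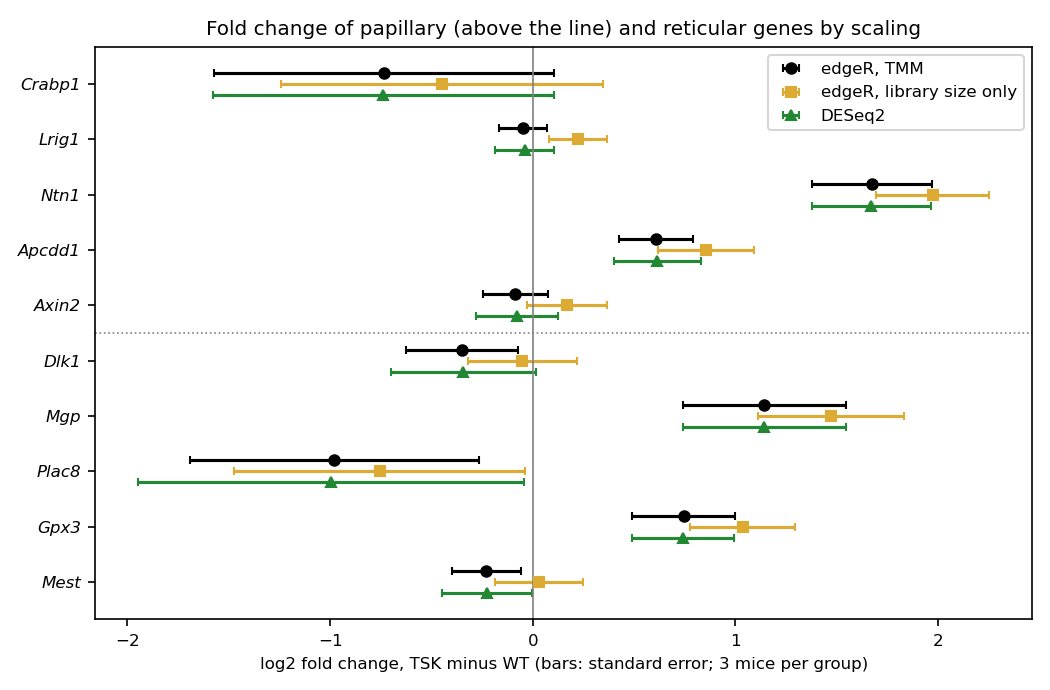
Log2 fold change (TSK minus WT) of each member with its standard error, papillary genes above the dotted line and reticular genes under it. Circles are edgeR with TMM, squares edgeR with library size only and triangles DESeq2. Ntn1 stands at 1.67 with TMM, Crabp1 and Plac8 have the widest error bars, and Lrig1, Axin2 and Mest lie on either side of 0 by scaling.

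Over both sets, 1 of 10 members was called higher, against 2.71% of all tested genes, and 0 were called lower, against 0.681%. No member was lower at an unadjusted edgeR p under 0.05 or in DESeq2. DESeq2 called 2 of 10 members, Ntn1 and Gpx3, both higher, against 7.48% of its tested genes called in either direction and 5.5% called higher. Ntn1, Apcdd1, Mgp and Gpx3, 4 of the 10 members, had an unadjusted p under 0.05, a property of 20% of all tested genes. On the deposited CPM, 5 of 10 members had all TSK libraries above all WT libraries, against 29.1% of tested genes, and none had them all below, against 2.58% (31.6% without overlap in either direction). On the TMM scale 3 of 10 were above, against 14.1%, and none below, against 10.6% (24.7% in either direction). The fitted fold change was above 0 for 4 of 10 members and for 47% of all genes. The median log2 fold change was -0.05 for the papillary genes and -0.23 for the reticular genes, beside -0.03 for all genes.

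The papillary and reticular genes were then set against each other within each mouse, as the mean log2 CPM of the 5 papillary genes minus that of the 5 reticular genes. This difference was 0.74, 0.29 and 1.17 in WT and 1.45, 1.25 and 0.73 in TSK. TSK 1 and TSK 2 lay above all WT mice, while TSK 3 lay below WT 3 and level with WT 1. The group means were 0.73 ± 0.44 and 1.14 ± 0.37 (SD, n = 3), a difference of 0.41 that was about the size of the pooled SD of 0.41. The genotypes overlapped in the contrast, and no p is given because the genes were chosen.

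With all 5 genes, neither set separated the genotypes by itself. The papillary mean was 4.01, 3.68 and 4.51 log2 CPM in WT and 4.59, 4.42 and 4.56 in TSK, so that WT 3 fell among the TSK mice. That overlap came with Crabp1, the gene with 62 counts in WT 3. Without it, the mean of the other 4 papillary genes was 5.19, 5.04 and 5.14 in WT and 5.70, 5.52 and 5.72 in TSK, a difference of 0.53 (pooled SD 0.09) without overlap. Crabp1 was singled out here after its values were seen. Without Ntn1 instead, the papillary difference was 0.17 (pooled SD 0.37), and it was 0.27 without WT 2 and 0.69 without WT 3. The reticular mean was 3.27, 3.40 and 3.33 in WT and 3.13, 3.17 and 3.83 in TSK, with TSK 3 above and the other TSK mice below the WT mice. Without TSK 3 the reticular difference was -0.18 (pooled SD 0.06), and without TSK 1 it was 0.17. Over all 5 genes of each set the differences were 0.46 (pooled SD 0.30) for the papillary set and 0.04 (pooled SD 0.28) for the reticular set. With library size only, which moved the median of all genes by a similar amount, they were 0.73 and 0.32. The contrast depended on single genes and libraries. It was 0.12 without Ntn1, 0.10 without Plac8 and 0.72 without Mgp. It was 0.48 (pooled SD 0.26) without Crabp1, with the groups still overlapping, and 0.63 (pooled SD 0.35) without WT 3 but 0.19 (pooled SD 0.35) without WT 2. It stayed above 0 in all 25 alternatives and was at or below its own pooled SD in 9 of them. Settings that only rescale the libraries cannot move it, apart from the prior count. Their values, such as 0.41 with library size only, thus say nothing of its stability.

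**Figure D3:**
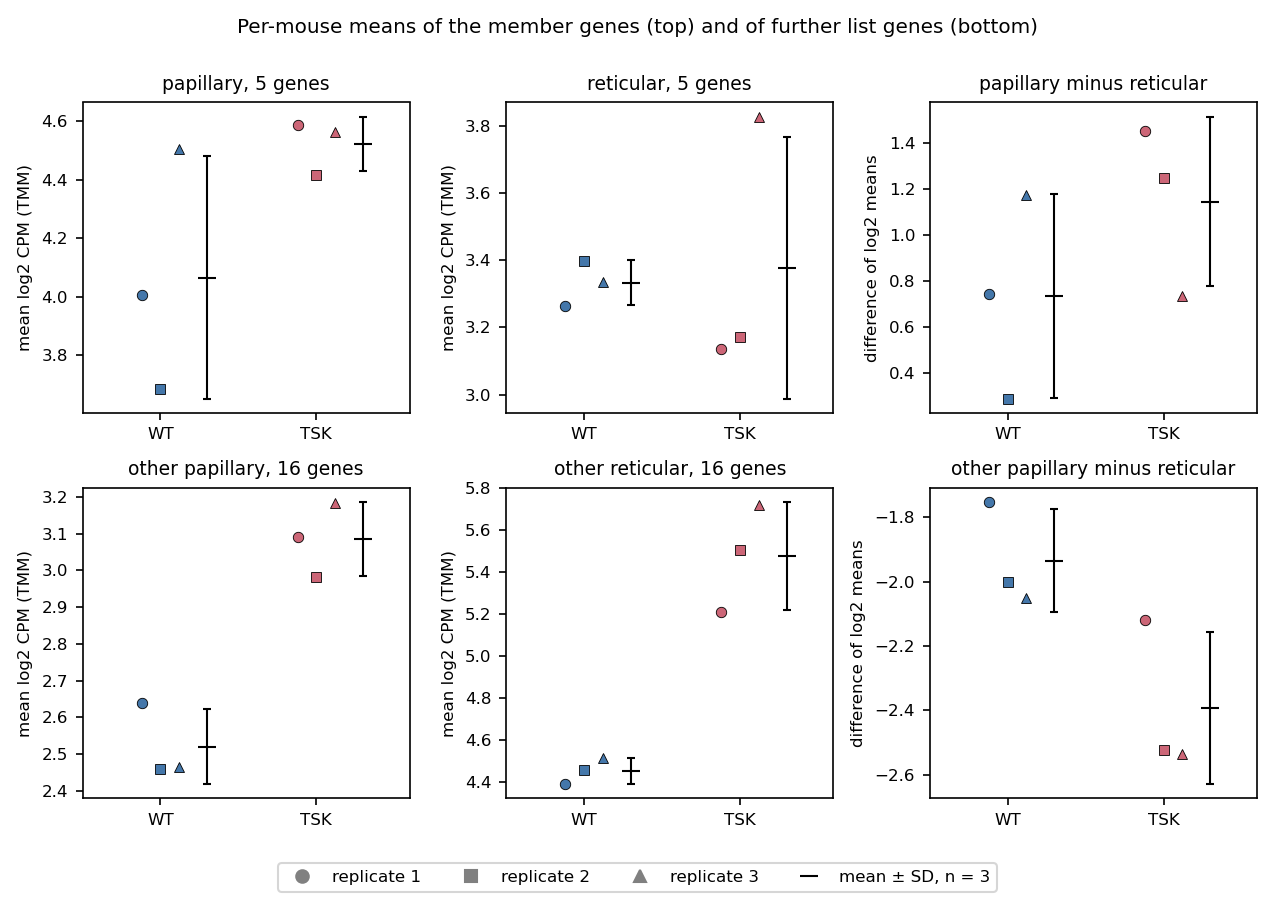
Mean log2 CPM of the papillary set, of the reticular set, and their difference within each mouse, for 3 WT and 3 TSK mice. The lower panels show the same for the wider lists of 16 further genes each. Points are mice and bars are the mean and SD. The groups overlap in the 3 panels of the member sets of 5 genes and are apart in the 3 panels of the wider lists, where the difference runs the other way (-0.46 against 0.41).

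Gene by gene, the 25 pairs of 1 papillary and 1 reticular gene share members and are not independent. In 17 pairs the mean difference, papillary minus reticular, was greater in TSK than in WT, and in 6 pairs all TSK mice were above all WT mice. Those 6 involved only Ntn1 and Apcdd1. Both had all TSK libraries above all WT libraries on the TMM scale by themselves, as had 14.1% of all tested genes. The share over pairs of other genes was not computed, so the 6 pairs are not read as a result about the sets. The log2 difference between TSK and WT was 1.90 for Ntn1 relative to Dlk1, 2.83 relative to Plac8, 1.83 relative to Mest and 0.93 relative to Gpx3. For Apcdd1 it was 0.94 relative to Dlk1 and 0.86 relative to Mest. No pair had all TSK mice below all WT mice. The lowest value of the 25 was -1.36, for Axin2 relative to Mgp.

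Because the sum of the pan-fibroblast markers differed between the groups, each member was also expressed relative to the mean log2 CPM of the 10 pan-fibroblast genes. That mean was 6.91, 7.69 and 7.62 in WT and 8.10, 8.23 and 8.93 in TSK, a difference of 1.01 without overlap. On this scale Ntn1 was at -3.36, -3.59 and -3.50 in WT and at -2.72, -3.18 and -2.75 in TSK. It was the 1 member of 10 with all TSK mice above all WT mice, which held for 0.661% of all tested genes, and its difference of 0.59 compared with a pooled SD of 0.20. Lrig1 (-1.06), Axin2 (-1.10), Dlk1 (-1.31) and Mest (-1.24) had all TSK mice below all WT mice. This held for 69.1% of all tested genes, so 4 of 10 was below the background and says nothing particular about these genes. Mgp (0.26), Gpx3 (-0.33), Apcdd1 (-0.38), Crabp1 (-0.84) and Plac8 (-2.23) overlapped between groups.

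**Figure D4:**
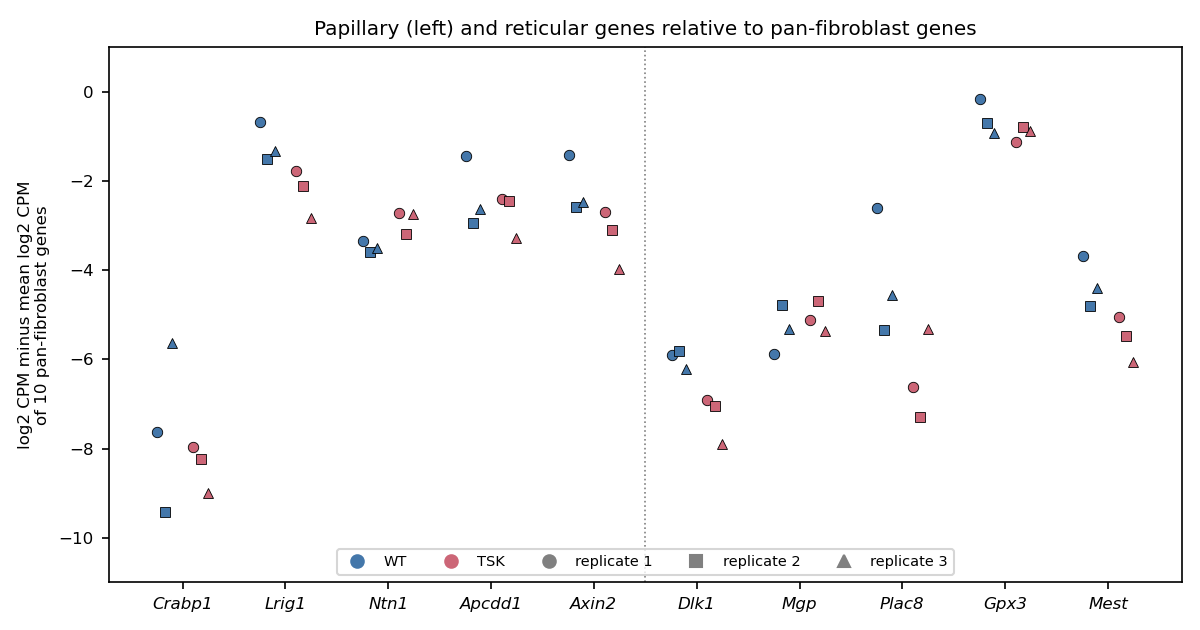
Log2 CPM of each member minus the mean log2 CPM of 10 pan-fibroblast genes in the same mouse, for WT and TSK mice as points. Ntn1 is the gene whose TSK points all lie above its WT points, by 0.59 on average, while Lrig1, Axin2, Dlk1 and Mest lie below.

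To compare genes with each other, CPM was divided by the kilobases of exon sequence. In WT skin Gpx3 was highest at 56.0 ± 5.31 CPM per kb, followed by Lrig1 at 12.2 ± 1.48. The libraries of these neighbours did not overlap. Plac8 (6.60 ± 5.35) overlapped Lrig1, Axin2 (6.41 ± 1.74), Mgp and Apcdd1 and could not be ordered against them. Mgp (3.47 ± 1.72), Apcdd1 (2.47 ± 0.940), Ntn1 (2.19 ± 0.277), Mest (1.99 ± 0.454), Crabp1 (1.70 ± 2.22) and Dlk1 (0.419 ± 0.0895) followed. Mgp did not overlap Axin2, but its highest library (5.113) all but met the lowest of Axin2 (5.115), too close to order them. Each later gene overlapped its neighbour in the order. In TSK skin Gpx3 (115 ± 46.4) and Lrig1 (14.3 ± 0.807) remained first. Mgp (9.65 ± 2.35) and Ntn1 (8.61 ± 3.82) came next with Axin2 (7.20 ± 0.896), and the libraries of these 3 genes overlapped, so their order was not resolved. Apcdd1 (4.46 ± 0.252) was below them. Plac8 (3.90 ± 4.10), Mest (2.04 ± 0.159), Crabp1 (1.24 ± 0.0572) and Dlk1 (0.405 ± 0.0196) were lowest, but the libraries of Plac8 ranged from below Mest to the level of Mgp, Ntn1 and Axin2, so its place was not resolved. Gpx3 was first in both genotypes. Dlk1 was last in TSK, whereas in WT its libraries overlapped those of Crabp1, which was the lower of the pair in WT 2.

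Wider lists of 16 further papillary and 16 further reticular genes were read from the same fit. Of the papillary genes, 3 were called higher and 0 lower in edgeR, against 2.71% and 0.681% of all tested genes, and the list's median was 0.62 on the log2 scale. DESeq2 called 6 higher and 1 lower, and 8 were higher and 1 lower at an unadjusted edgeR p under 0.05. Dpp4, a cell surface peptidase of upper dermal and fascial fibroblasts, rose from 6.82 ± 0.436 to 42.8 ± 11.6 CPM (log2 fold change 2.36, adjusted p = 0.00327). Prdm1, a transcriptional repressor, rose by 1.52 (adjusted p = 0.00847) and Lef1, a nuclear effector of Wnt signalling, by 1.11 (adjusted p = 0.0299). Of the reticular genes, edgeR called 3 higher and 1 lower, with a median of 1.24. DESeq2 called 10 higher and 1 lower, and 13 were higher and 1 lower at an unadjusted edgeR p under 0.05. Efhd1 rose by 2.61 (adjusted p = 0.00671), the adhesion molecule Cdh2 by 1.46 (adjusted p = 0.0461) and the surface glycoprotein Thy1 by 0.72 (adjusted p = 0.0437). Tgm2, a transglutaminase that crosslinks proteins, fell from 290 ± 18.4 to 189 ± 29.7 CPM (log2 fold change -0.89, adjusted p = 0.0291).

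The per-mouse mean of the wider papillary list was 2.52 ± 0.10 log2 CPM in WT and 3.09 ± 0.10 in TSK, and that of the wider reticular list 4.46 ± 0.06 and 5.48 ± 0.26. Neither overlapped between groups. The papillary list mean rose by 0.56 and the reticular list mean by 1.02, beside 1.01 for the mean of the 10 pan-fibroblast genes. The difference of the 2 list means within each mouse was -2.05 to -1.75 in WT and -2.53 to -2.12 in TSK. Its change of -0.46 had the opposite sign to the change of 0.41 in the 10 members, where the genotypes overlapped. The members thus gave no resolved direction, and the wider lists did not repeat their sign.

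Of 15 tested Wnt feedback and target genes, a list that includes Axin2 and Apcdd1, 3 were called higher and 0 lower in edgeR and 7 higher and 0 lower in DESeq2 (median 0.67). They were Twist1 (1.65, adjusted p = 0.0231), Dkk2 (1.63, adjusted p = 0.0171) and Lef1. Of 15 netrin, netrin receptor and LRIG genes, 2 were called higher. Besides Ntn1 this was Ntn4, a basement membrane netrin, which rose from 14.5 ± 1.87 to 37.2 ± 1.45 CPM (1.07, adjusted p = 0.0112). The netrin receptor gene Unc5b had a log2 fold change of 0.51 (adjusted p = 0.156), Neo1 of 0.03, and Dcc, low at 0.946 ± 0.479 CPM in WT and 0.561 ± 0.184 CPM in TSK, of -1.01 (adjusted p = 0.242). The Lrig1 relatives Lrig2 and Lrig3 had log2 fold changes of -0.04 and 0.05. Of 12 tested retinoic acid genes, 2 were called higher, both retinaldehyde dehydrogenases that make retinoic acid. Aldh1a3 rose from 2.80 ± 1.16 to 34.2 ± 13.2 CPM (3.34, adjusted p = 0.00536), and Aldh1a2 from 0.450 ± 0.498 to 4.34 ± 1.75 CPM (adjusted p = 0.0299). Aldh1a1, the more abundant enzyme of the same family, did not rise. It was at 72.5 ± 19.1 CPM in WT and 63.0 ± 10.7 CPM in TSK (-0.51, adjusted p = 0.316 in edgeR). Crabp2, the close relative of Crabp1, had a log2 fold change of 0.43 (adjusted p = 0.566). Of 14 imprinted growth genes, Dlk1 and Mest included, none was called in edgeR, 4 were higher and 1 lower at an unadjusted p under 0.05, and DESeq2 called 1 higher. Their median was -0.16, and the most abundant, H19, was at 3012 CPM in WT and 2727 CPM in TSK.

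All 10 pan-fibroblast genes had a fitted fold change above 0 (median 1.07), and 1, Dpt, was called in edgeR (1.22, adjusted p = 0.0239). In DESeq2 7 of the 10 were called higher, and 7 were higher at an unadjusted edgeR p under 0.05. Of 9 tested dermal papilla genes, Corin (3.49, adjusted p = 0.00519) and Bmp6 (0.98, adjusted p = 0.0394) were called higher, and the list summed to 59.5 to 72.7 CPM in WT and 106 to 139 CPM in TSK. The 10 basal and follicle keratinocyte genes, which mark the epithelium where Lrig1 and Axin2 are also expressed, had 0 calls (1 lower at an unadjusted edgeR p under 0.05, 0 in DESeq2) and a median of -0.28. Of 10 adipocyte genes 3 were called higher in edgeR and 7 in DESeq2, with 9 higher at an unadjusted edgeR p under 0.05 (median 2.80). Of 8 endothelial genes 2 were called higher in edgeR and 3 in DESeq2, with all 8 higher at an unadjusted p under 0.05 (median 0.77). Of 8 tested developing muscle genes, 7 were called lower (median -2.28). Of 8 hair matrix genes 3 were called higher in edgeR and 2 in DESeq2 (median 1.23), and of 8 smooth muscle and pericyte genes 1 in edgeR and 5 in DESeq2 (median 0.67). For myeloid genes 0 of 9, for cartilage genes 0 of 4 (Matn1 had no count in any library) and for adult muscle genes 0 of 10 were called by edgeR. At an unadjusted p under 0.05 these 3 lists had 3 higher and 1 lower, 1 higher and 1 lower, and 5 lower, and in DESeq2 2 higher and 1 lower, none, and 7 lower. The part of these shifts in the values of the members and of the wider lists was not tested.

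**Figure D5:**
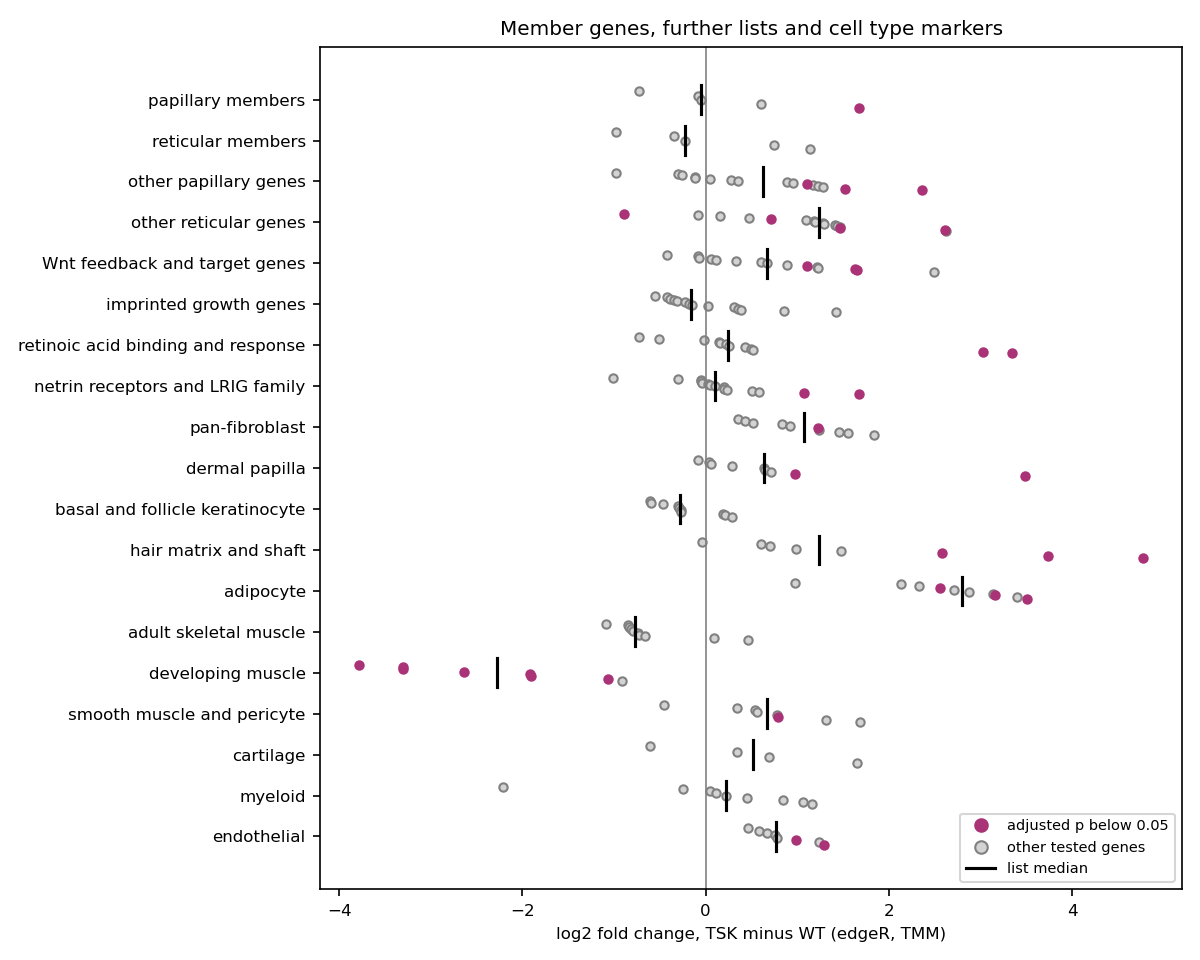
Fitted log2 fold change (TSK minus WT, edgeR with TMM) of every tested gene of the papillary and reticular members, the wider gene lists and the cell type marker lists. Each point is a gene, filled dark where its adjusted p was below 0.05, and a vertical bar is the list median. The members' medians of -0.05 and -0.23 lie near that of all tested genes, -0.03, while adipocyte genes lie at 2.80 and developing muscle genes at -2.28.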

How the data were processed

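Back skin RNA of 6 mice, 3 of each genotype, was sequenced by the authors (stranded, ribosomal RNA depleted, single-end reads of 50 bases), aligned with STAR to mm10 and quantified in Partek Flow. The tables deposited by the authors hold counts per gene, of which 43.3% to 45.4% of non-zero values were whole (tolerance 0.001), and CPM, counts scaled to 1000000 per library. The deposited values are thus estimated counts, although raw counts had been planned for, and they were rounded. Totals were 17561453 to 19219814 counts per library. Groups came from the labels, which do not say that mice differ in litter or batch. Genes were filtered by filterByExpr and tested with edgeR 4.0.16 (TMM, quasi-likelihood, two-sided, Benjamini-Hochberg over 19971 genes, R 4.3.3). DESeq2 1.42.0, limma 3.58.1, other filters and scalings, the replicate number as a block and fits lacking 1 library were alternatives, and the test was tried on simulated data. Same-numbered mice did not deviate together (correlations 0.0112, 0.167 and -0.0938). Set means were taken on log2 CPM after TMM (prior count 2). Coordinates and exon lengths are from GENCODE M21. The rule for named genes was all members, overlapping or imprinted neighbours, and up to 4 called genes per list, filled up to 2 by abundance. Most cell type lists are given by counts only. Crabp2, Aldh1a1, Unc5b, Neo1, Dcc, Lrig2, Lrig3, Col1a1, Col1a2 and Col3a1 were named after their values were seen. Members and lists were chosen with earlier results of these data known. No member's reads were compared with other genes by sequence.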

Additional observations from a re-analysis of the deposited data

How the results depend on the processing

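Between 0 and 2 members were called higher when 1 library was left out (2 without WT 1, 0 without WT 2 or WT 3), against 1 in the report. The number was 3 with library size only, 2 with DESeq2, 4 with limma-trend at a pseudocount of 1 or of 0.1, and 2 with the replicate block, which added Mgp. The block changed no other call, and the replicate numbers did not pair the mice. Past the threshold of the study there was 1 member with library size only, DESeq2, either limma-trend fit or no filter, against 0. The papillary median of -0.05 was 0.41 with limma-trend at 0.1, 0.28 with genes kept at a CPM of 1 or more (Crabp1 was dropped), and -0.12 to 0.56 over the libraries left out. The reticular median of -0.23 was 0.05 with limma-trend at 0.1. The reticular difference of 0.04 was -0.26 without Mgp, 0.36 without Plac8 and -0.18 without TSK 3. With library size only and limma-trend at 1 and at 0.1, it was 0.32, 0.31 and 0.32, and the papillary difference of 0.46 was 0.73, 0.63 and 0.73. The sign turned in uncalled members. With library size only Lrig1 was 0.22, Axin2 0.17 and Mest 0.033. Crabp1 was 0.26 with limma-voom. With limma-trend at 1, Crabp1 was 0.013, Lrig1 0.23, Axin2 0.19 and Mest 0.046, and at 0.1 they were 0.41, 0.23, 0.19 and 0.054. Over the libraries left out, Axin2 ranged from -0.21 (without TSK 1) to 0.075 (without WT 1), and was 0.012 without TSK 3, and Crabp1 from -1.23 (without WT 2) to 1.34 (without WT 3). Except where the construction names it, the cause was not tested. Among the alternative values of single members, 131 kept direction and side of the threshold, 15 turned direction, 11 newly passed and 2 no longer passed. Library size only and both limma-trend fits, which hold most of the turns, also moved the median of all genes from -0.03 to between 0.20 and 0.25. The turns of Lrig1, Axin2 and Mest in these fits are thus not particular to the members. The same is not said of Crabp1. It kept its sign with library size only (-0.45) and turned in limma-voom (0.26), where the median of all genes was -0.03. Ntn1 ranged from 1.28 to 1.97 and was called in 14 of 16. Over all genes 678 calls became 1778 with library size only, 1544 with DESeq2, 1387 with no filter, 1871 and 1860 with limma-trend, 1260 without WT 1, 287 without WT 2, 60 without WT 3, 381 without TSK 2 and 387 without TSK 3. At like totals, the WT libraries held between 3 and 62 counts of Crabp1 and the TSK libraries 18 or 19, and Plac8 also spread widely between mice.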
